A study of Mus musculus with 18 samples.

Results

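The quantity described here is the paclitaxel shift of the ribosome pulldown relative to its own input in mouse dorsal root ganglia. Within each of 8 biosamples, log2(CPM + 1) in the input was subtracted from log2(CPM + 1) in the pulldown, where CPM is a gene's reads scaled by the reads over all listed genes. The mean difference of the 4 paclitaxel biosamples was then compared with that of the 4 normal biosamples. All 18 libraries of the series entered, with the 2 subsamples of biosample 7 averaged per fraction, and 14214 of the 22021 listed genes, those that reached 1 CPM in 4 or more of the 16 values, were compared. A positive shift says that a transcript stood higher in the pulldown relative to the input after paclitaxel, and "passed" means an adjusted p under 0.05 in the limma fit over these genes.

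The mice carried Nav1.8cre on a C57BL/6J background together with the Rosa26fsTRAP allele, so that neurons with a history of Scn10a promoter activity made a fusion of EGFP and ribosomal protein L10a. Males and females aged 8 to 12 weeks were used. The paclitaxel mice were given intraperitoneal paclitaxel in cremaphor at 4 mg/kg, 4 times on alternate days over 8 days for 16 mg/kg in all, whereas the other biosamples are labelled normal. The 4 groups were normal input, normal TRAP, paclitaxel input and paclitaxel TRAP, with 4 biosamples each, and every group carried both transgenes. The labels do not say whether the normal mice were the ones dosed with vehicle alone, nor how many animals made a biosample. The p-values therefore measure the spread between these biosamples. Biosample 7 was made from a pair of paclitaxel assays. Scn10a-driven Cre marks mostly nociceptors but also some myelinated sensory neurons.

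Translating ribosome affinity purification (TRAP) uses an antibody against the tag to recover tagged ribosomes and the mRNA they carry. A difference between pulldown and input therefore reflects both which cells made the tagged ribosome and how strongly a transcript was loaded on it. Nociceptors are small sensory neurons that report noxious heat, pressure and chemicals and release neuropeptides such as CGRP, and paclitaxel, a microtubule-stabilising cancer drug, can leave patients with a painful neuropathy. The title of the series names RagA and mTORC1, a kinase complex that is recruited to lysosomes by Rag GTPases and stimulates translation of many mRNAs.

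Libraries held 4266000 to 14478042 reads in the input and 5972322 to 32713495 in the pulldown, and 3 reads were worth 0.0917 to 0.703 CPM. Pulldowns reached 1 CPM in 8081 to 13228 genes and inputs in 13152 to 14043. The lowest of these was the pulldown of subsample 1 of biosample 7, against 11945 genes in that of subsample 2. The middle of the differences was below 0 in all 8 biosamples, with medians of -0.86 to -0.37 in normal and -0.63 to -0.25 in paclitaxel ganglia. Their interquartile range was widest in normal biosample 1, at 2.12, and narrowest in paclitaxel biosample 8, at 0.97. Scn10a, the gene whose promoter drives Cre, had differences of 1.14, 0.09, 1.07 and 0.05 in normal biosamples 1 to 4 and of 1.45, 1.31, 1.07 and 1.39 in paclitaxel biosamples 5 to 8, all above 0. Its shift was 0.72 (SE 0.28, limma adjusted p = 0.31), and the groups overlapped. The 4 Y-linked genes Ddx3y, Eif2s3y, Kdm5d and Uty summed to 48.7 to 218 CPM in the normal and 60.7 to 105 CPM in the paclitaxel inputs, so male RNA was present in every biosample.

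After paclitaxel, 23 transcripts stood higher in the pulldown relative to the input and 4 stood lower. Those that shifted up include the CGRP precursor Calca, 5 mRNAs of mitochondrial or mitochondria-associated proteins (Ndufa4, Ndufb6, Slc25a3, Smdt1 and Cisd2), the ribosomal protein gene Rpl37, the cytoplasmic actin gene Actg1 and the trafficking genes Rab6a and Dynlrb1. The mitochondrial group was formed after these genes were seen, and the share of such genes among all those tested was not counted. The 4 that shifted down were Nyap1, Anp32b, Plec and the medium neurofilament gene Nefm. The 27 genes are 0.19% of those tested, 0.162% higher and 0.0281% lower. At an unadjusted p under 0.05 there were 986 genes higher (6.94%) and 625 lower (4.4%), and the median shift over all genes was 0.02.

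In none of these 27 genes did the 4 paclitaxel differences overlap the 4 normal ones. The genes were chosen by the test of these same differences, so this lack of overlap is not separate support. Among all genes tested, 3.78% did not overlap upward and 2.82% downward. In 20 of the 23 genes that shifted up, every normal difference was below 0, so the transcript was sparser in the pulldown than in the input. Over all genes tested, only 29.0% to 35.0% were above 0 in each normal biosample, so values below 0 were common there. Choosing genes for an upward shift also favours low normal differences. In 11 of the 23 genes every normal difference was below 0 and every paclitaxel difference above 0. All 4 genes that shifted down had every normal difference above 0, with means of 0.99 to 1.43, and paclitaxel means of -0.22 to 0.08. Among the 23 genes, normal biosample 2 had the lowest difference of the 4 normal biosamples in 14 and biosample 3 the highest in 15.

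**Figure D1:**
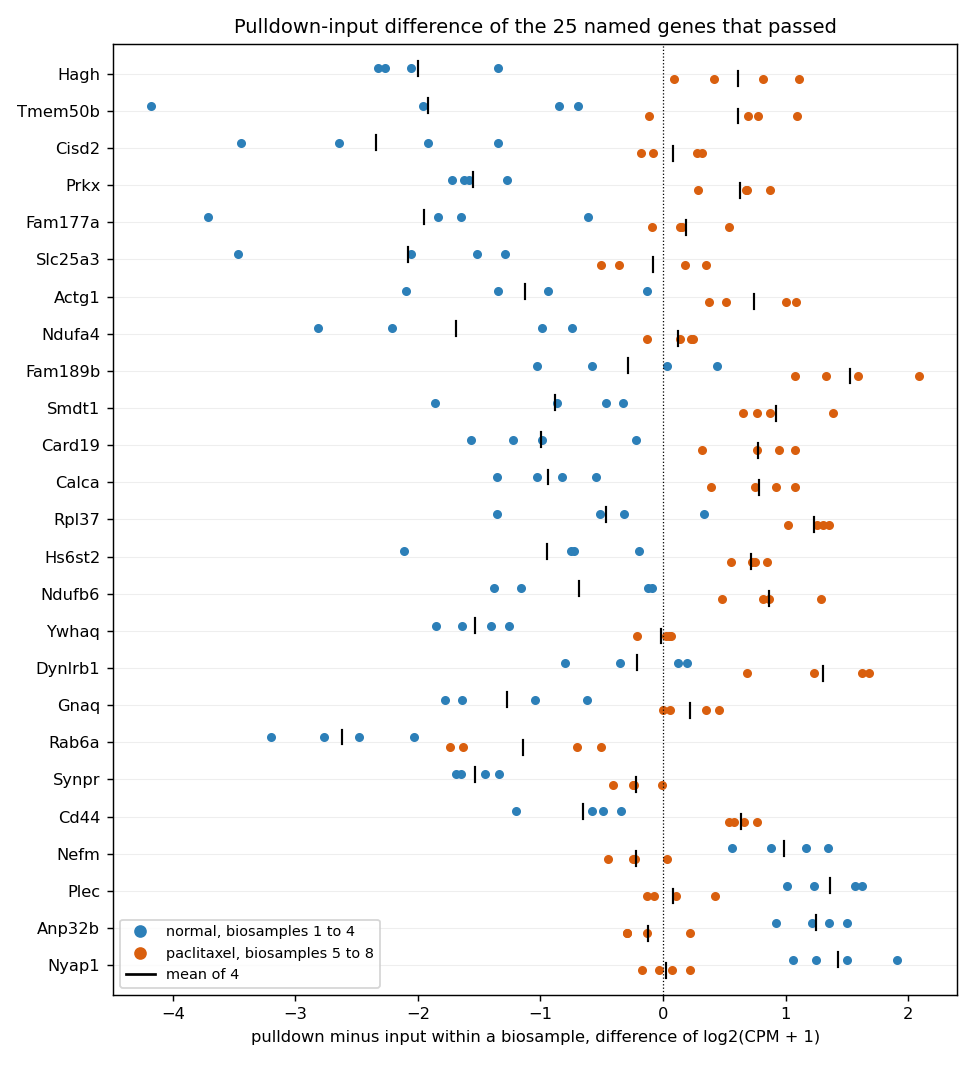
Difference between pulldown and input, in log2(CPM + 1), for the 25 named genes that passed; each point is 1 biosample (blue normal, orange paclitaxel) and each vertical bar the mean of 4. Orange lies to the right of blue in the upper 21 genes and to the left in the lower 4, with no overlap between the groups, and most of the normal spread of the upper genes is toward the input.

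The number of genes that passed depended on the biosamples and on the model. Without normal biosamples 1, 2, 3 and 4 in turn, 36, 5, 86 and 42 genes passed in limma, among them 23, 4, 27 and 22 of the 27. Without paclitaxel biosamples 5, 6, 7 and 8 in turn, 3, 4, 0 and 10 passed, among them 3, 4, 0 and 8 of the 27, with 1289 genes at an unadjusted p under 0.05 when biosample 7 was left out. With subsample 1 of biosample 7 alone 5 passed and with subsample 2 alone 17, among them 5 and 16 of the 27. With edgeR on the recovered reads 0 passed (1203 genes at an unadjusted p under 0.05, smallest adjusted p 0.0567). All 27 kept their sign and an unadjusted p under 0.05 in each of the 24 alternative fits that tested them. These fits reuse the libraries by which the 27 were chosen, so this is not separate support.

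For all 27 genes the paclitaxel-minus-normal change was larger in the pulldown than in the input, and the 2 are set side by side here because the shift is their difference and shares their libraries. In the 23 genes that shifted up, the pulldown changed by 0.95 to 3.18 with a median of 2.08, and the input by -0.36 to 0.92 with a median of 0.17. In the 4 that shifted down, the pulldown changed by -1.98 to -1.41 and the input by -0.57 to -0.19. Over all genes the medians were 0.17 in the pulldown and 0.14 in the input. Taken alone, the pulldown gave 259 genes at a limma adjusted p under 0.05 (1.82%), of which 189 (1.33%) were higher and 70 (0.492%) lower. The input gave 233 (1.64%), of which 207 (1.46%) were higher and 26 (0.183%) lower. Both counts moved with single biosamples. Without normal biosamples 1 to 4 in turn the pulldown gave 25, 0, 491 and 112 genes in limma and without paclitaxel biosamples 5 to 8 it gave 35, 218, 7 and 0, where the zeros came with 2058 and 2026 genes at an unadjusted p under 0.05. The input gave 0, 831, 393 and 129 genes and 21, 218, 7 and 18 genes, and its 0 came with 2079 genes at an unadjusted p under 0.05.

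**Figure D2:**
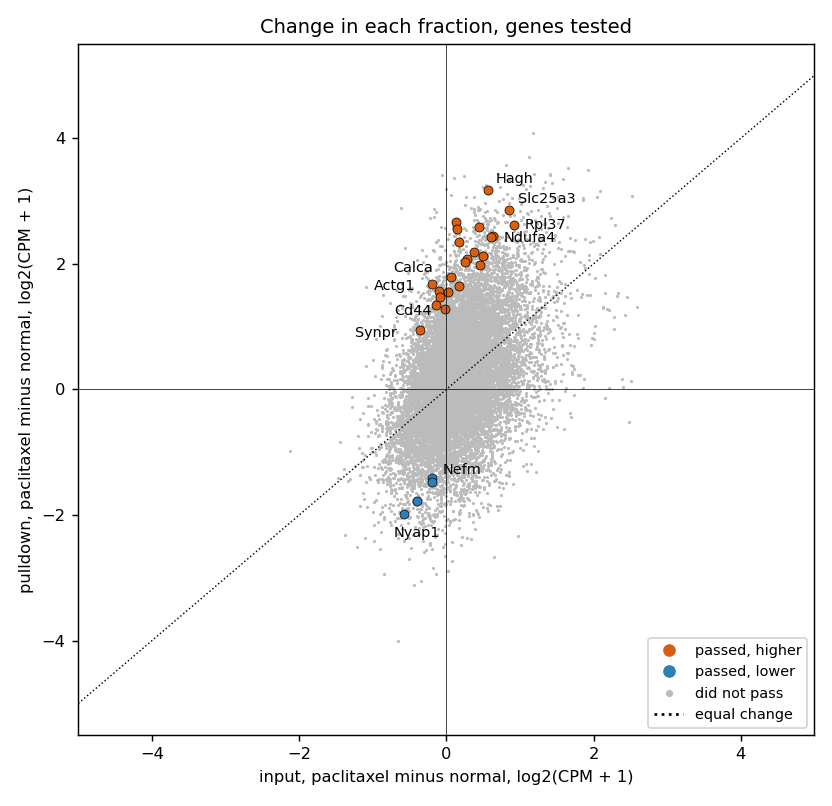
Change from normal to paclitaxel in the input (x axis) against the change in the pulldown (y axis), both in log2(CPM + 1), for the genes tested (grey), those that passed higher (orange) and those that passed lower (blue); the dotted line marks equal change. The passed genes stand above or below the dotted line through their pulldown change, 0.95 to 3.18 for orange and -1.98 to -1.41 for blue, at input changes between -0.57 and 0.92.

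Neuropeptide genes had a median shift of 0.98 with the pseudocount of 1 CPM used throughout and of 0.37 with 5 CPM, and Calca was the one that passed. Calca encodes calcitonin and, in sensory neurons, CGRP, the vasodilator peptide of nociceptors. It lies on chromosome 7 at 114631478 to 114636357 on the minus strand of GRCm38. Calca stood at 926, 1836, 1392 and 752 CPM in the inputs of normal biosamples 1 to 4 and at 523, 717, 950 and 368 CPM in their pulldowns. In paclitaxel biosamples 5 to 8 it stood at 1052, 1073, 1410 and 1309 CPM in the inputs and at 1994, 1803, 2976 and 1720 CPM in the pulldowns. Every normal pulldown was thus below its input and every paclitaxel pulldown above it, while the input levels of the 2 treatments overlapped. The differences of -0.94 ± 0.34 (SD, n = 4) and 0.79 ± 0.29 (SD, n = 4) gave a shift of 1.72 (SE 0.25, limma adjusted p = 0.0066). Calca passed in 18 of 24 alternative fits and in 7 of the 8 that left out 1 biosample, with a shift between 1.51 and 1.86 throughout. It did not pass without paclitaxel biosample 7 (adjusted p = 0.0859) or with edgeR (adjusted p = 0.1).

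Of 18 neuropeptide genes 13 could be tested, and Vip, Grp, Pdyn, Ucn and Cck fell below the filter. Calca alone passed, 5 of the 13 were higher and 0 lower at an unadjusted p under 0.05. For this and every later list, the shares over all genes at that p were 6.94% higher and 4.4% lower. The shares without overlap were 3.78% higher and 2.82% lower. Calcb, which encodes the beta form of CGRP, had differences of 0.15, -1.37, 0.17 and -0.41 in normal and 1.21, 1.09, 0.32 and 0.60 in paclitaxel biosamples. These do not overlap, and the shift was 1.17 (SE 0.36, limma adjusted p = 0.172). Calca and Calcb are similar in sequence, so reads may have been divided between them in the counting. Bdnf, a growth factor released by nociceptors, also did not overlap, with -2.01 to -1.05 in normal and -0.66 to -0.28 in paclitaxel biosamples and a shift of 0.98 (SE 0.33, limma adjusted p = 0.222).

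Adcyap1, the precursor of the peptide PACAP, had the largest estimate of the list at 2.05 (SE 0.61, limma adjusted p = 0.152). Its normal differences of -3.82, -1.48, 0.08 and -1.04 spread widely and overlapped the paclitaxel values of 0.02 to 0.90, with biosample 1 far below the others. Galanin (Gal), a peptide induced in injured sensory neurons, had a shift of 1.40 (SE 0.50, limma adjusted p = 0.258), with paclitaxel biosample 8 at -0.02 among the normal values. The substance P gene Tac1 gave 0.37 (SE 0.29) and neuromedin B (Nmb) gave 0.20 (SE 0.34), and both groups overlapped.

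**Figure D3:**
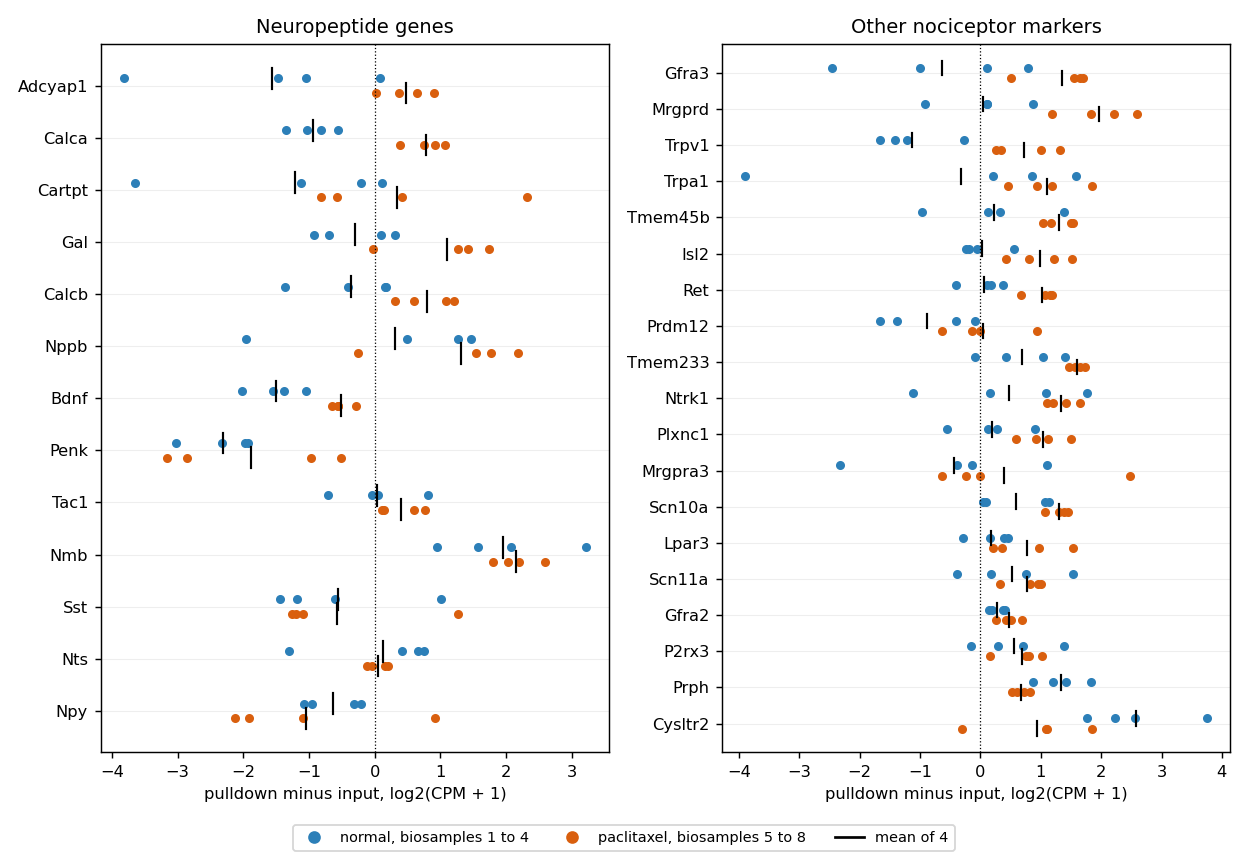
Difference between pulldown and input, in log2(CPM + 1), for the tested neuropeptide genes (left) and the remaining tested nociceptor markers (right), ordered by shift; points are biosamples (blue normal, orange paclitaxel) and vertical bars means of 4. Calca separates cleanly at -1.35 to -0.55 against 0.39 to 1.08, Mrgprd, Trpv1 and Ret separate by less, and Prph and Cysltr2 lie on the other side.

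Among the nociceptor markers, which share Calca, Calcb, Tac1, Sst and Nppb with the neuropeptides, 24 of 25 could be tested. Only Calca passed, 12 of the 24 were higher and 1 lower at an unadjusted p under 0.05, 6 higher and 1 lower did not overlap, and the median shift was 0.89. The median difference over these genes was -0.48 to 0.36 in the normal biosamples and 0.60 to 1.09 in the paclitaxel ones. Without biosamples 1, 2, 5 and 6, whose pulldowns reached 1 CPM in 9715 to 10884 genes, the median shift was 0.52. The summed CPM of the list gave overlapping log2 ratios of pulldown to input, 0.12 to 0.99 in normal and 0.83 to 1.12 in paclitaxel biosamples.

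Mrgprd, an itch and touch receptor of non-peptidergic nociceptors, stood at 57.4, 62.1, 56.5 and 12.9 CPM in normal and at 108, 130, 136 and 48.7 CPM in paclitaxel pulldowns. Its differences of 0.88, -0.91, 0.11 and 0.10 against 2.21, 2.60, 1.84 and 1.19 did not overlap, with a shift of 1.91 (SE 0.47, limma adjusted p = 0.0833). Trpv1, the heat- and capsaicin-gated channel, had differences of -1.66 to -0.27 in normal and 0.25 to 1.32 in paclitaxel biosamples and a shift of 1.87 (SE 0.52, limma adjusted p = 0.125). Ret, the signalling receptor for GDNF family ligands, had differences of -0.41 to 0.37 against 0.67 to 1.18 and a shift of 0.96 (SE 0.25, limma adjusted p = 0.107). None of these 3 genes passed, although none overlapped.

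Prph, which encodes peripherin, an intermediate filament of thin axons, and Cysltr2, a leukotriene receptor of pruriceptors, stood on the other side. Prph had differences of 1.84, 1.21, 0.88 and 1.41 in normal and 0.72, 0.52, 0.81 and 0.60 in paclitaxel biosamples, with a shift of -0.67 (SE 0.25, limma adjusted p = 0.302). Cysltr2 had a shift of -1.64 (SE 0.85, limma adjusted p = 0.478) and overlapped. Both were above 0 in nearly all biosamples, so they remained more abundant in the pulldown than in the input, apart from Cysltr2 in biosample 7 at -0.30. Scn11a, Gfra2 and P2rx3, which encode a sodium channel, a neurturin receptor and an ATP-gated channel of nociceptors, gave shifts of 0.25 (SE 0.32), 0.19 (SE 0.26) and 0.12 (SE 0.55).

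Receptors showed a smaller displacement. Of 38 tested genes for G protein-coupled and growth factor receptors 0 passed in limma, and the median shift was 0.18. At an unadjusted p under 0.05, 8 were higher and 0 lower, beside 6.94% and 4.4% of all genes. Ngfr, the low-affinity neurotrophin receptor, had differences of 0.03, -2.04, 0.05 and -0.22 against 1.22, 0.93, 0.90 and 0.23, which did not overlap, with a shift of 1.36 (SE 0.40, limma adjusted p = 0.152). The adenosine receptor gene Adora1 gave 0.84 (SE 0.30) and the GABA-B subunit gene Gabbr2 gave 0.87 (SE 0.30), also with no overlap. The summed CPM of the list had log2 ratios of -0.13 to 0.07 in normal and 0.31 to 0.53 in paclitaxel biosamples. Gnaq, the G protein alpha subunit through which many of these receptors reach phospholipase C, was not in the list and passed. Its differences were -1.64, -1.78, -0.62 and -1.05 in normal and 0.35, 0.06, 0.45 and 0.00 in paclitaxel biosamples, a shift of 1.49 (SE 0.28, limma adjusted p = 0.0205). Gnaq, Cd44, Hs6st2, Rab6a, Synpr and Ywhaq, and the examples given from each list beside its leading member, were singled out after their values were seen.

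Ion channels gave 0 passed genes of 75 in limma, 12 higher and 2 lower at an unadjusted p under 0.05 and a median of 0.30. Cacnb4, an auxiliary subunit of voltage-gated calcium channels, had the lowest p. Its differences were -2.72, -2.21, -1.47 and -2.36 in normal and -1.28, -1.44, -0.58 and -0.22 in paclitaxel biosamples, so it stayed below its input in all 8 but did not overlap, with a shift of 1.31 (SE 0.32, limma adjusted p = 0.077). Kcnip4, a cytoplasmic subunit of A-type potassium channels, gave 1.56 (SE 0.43, limma adjusted p = 0.123), with no overlap. The 2 genes on the other side were the ATP-gated channel P2rx4 at -0.84 (SE 0.35) and the sodium channel subunit Scn2b at -0.77 (SE 0.34), and both overlapped.

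In the mTORC1 network named in the title, 0 of 40 genes passed in limma, and the median shift was 0.23. At an unadjusted p under 0.05, 3 were higher and 3 lower, beside 6.94% and 4.4% of all genes. These counts are near the shares over all genes. Rraga, which encodes RagA, stood at 92.4, 375, 153 and 52 CPM in the inputs and 94.3, 98, 144 and 20.9 CPM in the pulldowns of normal biosamples 1 to 4. In paclitaxel biosamples 5 to 8 it stood at 246, 234, 193 and 159 CPM in the inputs and 484, 314, 325 and 246 CPM in the pulldowns. All 4 paclitaxel pulldowns were above the normal ones, and the inputs overlapped. The differences of 0.03, -1.92, -0.09 and -1.27 against 0.97, 0.42, 0.75 and 0.63 did not overlap, and the shift of 1.51 (SE 0.36) had a limma adjusted p of 0.0752. In the pulldown alone Rraga was higher by 2.17 (limma adjusted p = 0.034) and in the input by 0.66 (limma adjusted p = 0.426).

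Lamtor5, a subunit of the Ragulator complex that anchors Rag GTPases on lysosomes, had differences of -3.12 to -0.90 in normal and 0.02 to 0.61 in paclitaxel biosamples and a shift of 1.88 (SE 0.49, limma adjusted p = 0.1). The other Ragulator genes Lamtor1 to Lamtor4 gave shifts of 0.55 (SE 0.31), 0.03 (SE 0.32), -0.17 (SE 0.34) and -0.08 (SE 0.39), and each overlapped. Akt1s1, which encodes the mTORC1 inhibitor PRAS40, went the other way with 1.71, 1.37, 1.29 and 1.04 in normal and -0.17, 0.09, 0.06 and 0.26 in paclitaxel biosamples, which do not overlap. Its shift was -1.30 (SE 0.44, limma adjusted p = 0.234), while both the pulldown (-2.51, limma adjusted p = 0.00889) and the input (-1.22, limma adjusted p = 0.042) were lower on their own.

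The kinase itself and its partners gave estimates with wide errors. Mtor, at 0.56 to 8.58 CPM in normal and 15.3 to 26.3 CPM in paclitaxel pulldowns, had a shift of 1.28 (SE 0.88, limma adjusted p = 0.619), and the groups overlapped. The scaffold gene Rptor gave -0.36 (SE 0.73), the cap-binding factor Eif4e 0.02 (SE 0.33) and its inhibitor Eif4ebp1 1.23 (SE 0.95). The sign of Eif4e was not fixed: it was -0.10 under median-ratio scaling and -0.13 with edgeR. The estimate for Mtor was -0.04 when biosamples 1, 2, 5 and 6 were left out.

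Translation machinery split into genes on both sides. Rpl37, a protein of the large ribosomal subunit (chromosome 15, 5116613 to 5119140), stood at 61.1, 116, 212 and 35.5 CPM in the pulldowns of normal biosamples 1 to 4 and at 541, 468, 685 and 458 CPM in those of paclitaxel biosamples 5 to 8. The inputs were 76.3, 298, 168 and 51.1 CPM and 226, 182, 276 and 225 CPM and overlapped. The differences of -0.32, -1.36, 0.33 and -0.51 against 1.26, 1.36, 1.31 and 1.02 gave a shift of 1.70 (SE 0.32, limma adjusted p = 0.0197). Reads of Rpl37 and of other ribosomal protein genes can also match processed pseudogenes, so their values carry that uncertainty.

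Rpl37 was the only one of 83 cytosolic ribosomal protein genes that passed. At an unadjusted p under 0.05, 10 were higher and 13 lower, 8 higher and 10 lower did not overlap, and the median was 0.07. Rps29 gave 1.38 (SE 0.31, limma adjusted p = 0.0695) and Rpl39 gave 1.60 (SE 0.48, limma adjusted p = 0.162), whereas Rpl24 gave -1.06 (SE 0.25, limma adjusted p = 0.0695), Rpl14 -1.19 (SE 0.30, limma adjusted p = 0.0896) and Rpsa -1.04 (SE 0.26, limma adjusted p = 0.0896). For Rpl24 the difference stayed above 0 in all 8 biosamples, 1.56 to 2.19 in normal and 0.60 to 1.13 in paclitaxel. Rpl10a, whose protein carries the tag, had differences of 0.27, -3.19, -0.23 and 1.35 against 1.21, 1.15, 2.1 and 0.53, with overlap and a shift of 1.70 (SE 0.83, limma adjusted p = 0.445).

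Of 50 initiation and elongation factor genes 0 passed in limma, with 7 higher and 8 lower at an unadjusted p under 0.05. Subunits of the elongation factor that recharges EF1A lay lower, with Eef1d at -1.26 (SE 0.29, limma adjusted p = 0.0695) and Eef1b2 at -1.06 (SE 0.30, limma adjusted p = 0.129). For Eef1d the normal pulldowns held 515, 398, 227 and 427 CPM and the paclitaxel pulldowns 122, 115, 144 and 141 CPM, with no overlap. Eef1a1, which encodes EF1A itself, gave 0.74 (SE 0.27, limma adjusted p = 0.269), and Eif1, a start-codon selection factor, gave 1.13 (SE 0.32, limma adjusted p = 0.132).

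Respiratory chain transcripts lay mostly on the higher side. Of 76 nuclear-encoded oxidative phosphorylation genes 2 passed, 22 were higher and 7 lower at an unadjusted p under 0.05, 15 higher and 4 lower did not overlap, and the median shift was 0.38. Ndufa4 (chromosome 6, 11900292 to 11907497), a small subunit associated with cytochrome oxidase, stood at 19.1, 90, 167 and 60.6 CPM in normal and at 384, 254, 390 and 422 CPM in paclitaxel pulldowns. Its inputs were 140, 421, 331 and 102 CPM and 324, 278, 354 and 360 CPM, with overlap. The differences of -2.81, -2.22, -0.99 and -0.74 against 0.24, -0.13, 0.14 and 0.23 gave a shift of 1.81 (SE 0.36, limma adjusted p = 0.0345). Ndufb6, an accessory subunit of complex I, had -1.38, -1.16, -0.12 and -0.09 against 1.29, 0.82, 0.86 and 0.48 and a shift of 1.55 (SE 0.33, limma adjusted p = 0.0426).

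Several cytochrome oxidase subunits had non-overlapping differences without passing. They were Cox7a2 at 1.30 (SE 0.33, limma adjusted p = 0.0963), Cox6b1 at 1.33 (SE 0.33, limma adjusted p = 0.0896), Cox6a1 at 1.05 (SE 0.28, limma adjusted p = 0.105) and Cox4i1 at 1.17 (SE 0.32, limma adjusted p = 0.121). On the other side stood subunits of complex I and of ATP synthase, such as Ndufs5 at -0.82 (SE 0.30), Atp5k at -0.74 (SE 0.25) and Ndufa5 at -0.71 (SE 0.28). The 11 tested mitochondrially encoded mRNAs, which are translated on ribosomes that lack L10a, had medians of -3.68 to -2.07 in normal and -3.61 to -2.03 in paclitaxel biosamples. Of these 0 passed in limma, mt-Nd1 alone was higher at an unadjusted p under 0.05 (0.66, SE 0.30), and the median shift was -0.04.

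Outside the chain, Slc25a3, the phosphate carrier of the inner membrane (chromosome 10, 91116574 to 91124059), had differences of -3.47, -2.06, -1.51 and -1.29 in normal and -0.51, 0.35, 0.18 and -0.36 in paclitaxel biosamples. Its shift was 2.00 (SE 0.37, limma adjusted p = 0.0197). Smdt1, a regulator of the mitochondrial calcium uniporter, had -0.33, -1.86, -0.86 and -0.47 against 1.39, 0.77, 0.88 and 0.66 and a shift of 1.80 (SE 0.36, limma adjusted p = 0.0311), and it overlaps Pheta2 on the same strand. Cisd2, an iron-sulfur protein of the endoplasmic reticulum and outer mitochondrial membrane, had -1.92, -3.45, -1.35 and -2.65 against 0.28, -0.18, 0.32 and -0.08 and a shift of 2.42 (SE 0.51, limma adjusted p = 0.042). In all 3 the normal pulldown was below its input in every biosample.

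Hagh had the largest shift of all genes that passed. It encodes the glyoxalase that hydrolyses lactoylglutathione, a step in clearing the glycolytic by-product methylglyoxal, and lies on chromosome 17 at 24840143 to 24864450. It stood at 28, 137, 51 and 16.9 CPM in the inputs and 5.04, 26.5, 11.5 and 6.03 CPM in the pulldowns of normal biosamples 1 to 4. In paclitaxel biosamples 5 to 8 the inputs held 50.7, 41.3, 83.1 and 97.8 CPM and the pulldowns 111, 44, 147 and 131 CPM. The pulldown was below its input in all 4 normal and above it in all 4 paclitaxel biosamples, in biosample 6 by only 0.09. The shift was 2.61 (SE 0.45, limma adjusted p = 0.0139). Hagh overlaps Fahd1 on the opposite strand.

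**Figure D4:**
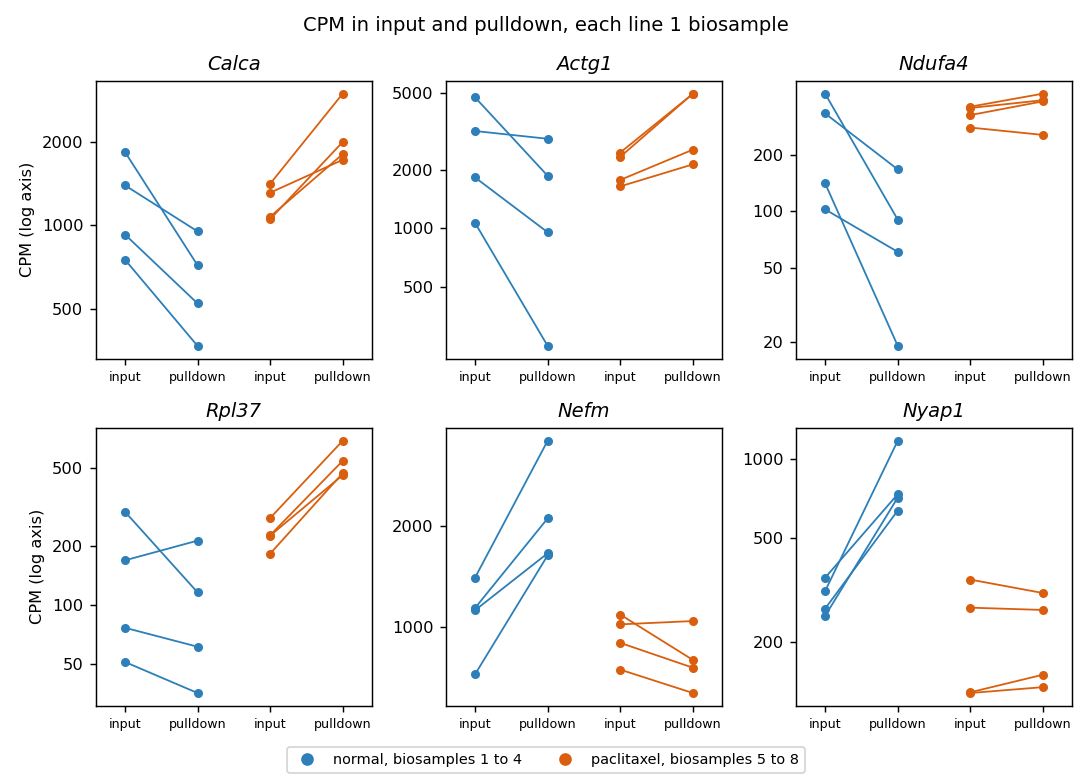
CPM in the input and the pulldown of each biosample (joined by a line; blue normal, orange paclitaxel) for 6 of the genes that passed, on log axes that differ between panels. Lines of Calca, Actg1 and Ndufa4 fall from input to pulldown in all 4 normal biosamples, those of Nefm and Nyap1 climb there, and the paclitaxel lines are flat or turned the other way.

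Lysosomal genes leaned to the higher side and proteasome genes more often to the lower. Of 32 V-ATPase and lysosomal genes 0 passed in limma, 10 were higher and 0 lower at an unadjusted p under 0.05, 8 did not overlap, and the median shift was 0.47. Their median difference was -0.23 to -0.09 in normal and 0.02 to 0.38 in paclitaxel biosamples. The cathepsin gene Ctsb had -0.60, -0.73, -0.29 and -0.54 against 0.31, 0.41, 0.62 and 0.14, with a shift of 0.91 (SE 0.24, limma adjusted p = 0.107). Atp6v1a, the catalytic subunit of the proton pump, gave 1.00 (SE 0.27, limma adjusted p = 0.107). Of 35 proteasome genes 0 passed in limma, and the median was -0.28. Shifts were above 0 in 11 and below 0 in 24, beside 7247 and 6967 of all genes. Their summed CPM had log2 ratios of pulldown to input of 0.99 to 1.61 in normal and 0.55 to 0.85 in paclitaxel biosamples. At an unadjusted p under 0.05, 6 were higher and 9 lower, beside 6.94% and 4.4% of all genes. Psma2 and Psma3 of the core ring gave 1.29 (SE 0.32) and 1.12 (SE 0.33), whereas the ATPase subunit Psmc1 gave -0.84 (SE 0.24) and the deubiquitinase Psmd14 -1.06 (SE 0.34). Chaperones gave 5 genes in each direction at an unadjusted p under 0.05, 0 of 31 passed in limma, and Cct8 of the chaperonin ring had the lowest p at -1.26 (SE 0.33, limma adjusted p = 0.105).

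Cytoskeletal and transport genes were among those that passed in both directions. Actg1, cytoplasmic gamma-actin (chromosome 11, 120345690 to 120348542), had differences of -0.94, -1.34, -0.13 and -2.10 in normal and 1.01, 1.08, 0.52 and 0.38 in paclitaxel biosamples, a shift of 1.87 (SE 0.32, limma adjusted p = 0.0139). Its pulldown change of 1.67 did not pass alone (limma adjusted p = 0.17), and the pulldowns ranged from 247 to 2889 CPM in normal and from 2131 to 4936 CPM in paclitaxel biosamples. Actin genes and pseudogenes share sequence. Dynlrb1, a dynein light chain of the roadblock type, had 0.12, -0.35, 0.19 and -0.80 against 1.62, 1.68, 1.24 and 0.69 and a shift of 1.52 (SE 0.32, limma adjusted p = 0.042). It was the only one of 32 kinesin, dynein and dynactin genes that passed. At an unadjusted p under 0.05, 5 were higher and 2 lower, beside 6.94% and 4.4% of all genes. The kinesin genes Kif5a and Kif3a gave -0.92 (SE 0.29, limma adjusted p = 0.185) and -0.95 (SE 0.29, limma adjusted p = 0.169).

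Nefm, the medium neurofilament subunit of large axons, shifted down. It lies on chromosome 14 at 68082590 to 68124846 and overlaps Nefl on the opposite strand in this annotation. The inputs held 1138, 724, 1121 and 1401 CPM in normal and 1088, 1018, 897 and 747 CPM in paclitaxel biosamples. The pulldowns held 2100, 1631, 1655 and 3569 CPM in normal and 799, 1041, 757 and 637 CPM in paclitaxel biosamples. Every normal pulldown exceeded every paclitaxel pulldown, and the inputs overlapped. With differences of 0.99 ± 0.34 (SD, n = 4) and -0.22 ± 0.20 (SD, n = 4), the shift was -1.21 (SE 0.25, limma adjusted p = 0.0406). The heavy subunit Nefh gave -0.63 (SE 0.27, limma adjusted p = 0.382) with no overlap, through an input change of 0.86 against a pulldown change of 0.23, and the light subunit Nefl gave -0.35 (SE 0.25, limma adjusted p = 0.643) with overlap.

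Nefm and Nefh were the 2 of 16 large-fibre and proprioceptor markers with an unadjusted p under 0.05, both lower, and the median shift of the list was -0.31. The list's median differences overlapped, at -1.69, -0.71, -1.29 and -0.83 in normal and -1.04, -1.42, -1.04 and -0.90 in paclitaxel biosamples. Its summed CPM, much of which is Nefm itself, had log2 ratios of pulldown to input of -0.14 to 0.84 and -0.85 to -0.50. The part of the other members in the shift of Nefm was not tested. Fewer cells of a type and less RNA per cell cannot be told apart in these bulk extracts.

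Plec, the cytolinker plectin (chromosome 15, 76170974 to 76243441), had differences of 1.56, 1.62, 1.24 and 1.02 against 0.42, 0.10, -0.13 and -0.08 and a shift of -1.28 (SE 0.26, limma adjusted p = 0.0406). It shares its strand with Parp10. Nyap1, a neuronal adaptor of phosphoinositide 3-kinase (chromosome 5, 137729899 to 137741607), stood at 1180, 714, 637 and 736 CPM in normal and at 264, 307, 134 and 149 CPM in paclitaxel pulldowns. Its inputs were 313, 251, 268 and 352 CPM and 270, 346, 127 and 128 CPM, with overlap. The differences of 1.91, 1.5, 1.25 and 1.06 against -0.03, -0.17, 0.07 and 0.22 gave the largest downward shift that passed, -1.41 (SE 0.26, limma adjusted p = 0.0197). Anp32b, a nuclear histone chaperone with related copies elsewhere in the genome, had 1.22, 1.5, 0.93 and 1.35 against -0.13, 0.22, -0.29 and -0.29 and a shift of -1.37 (SE 0.28, limma adjusted p = 0.0406). All 3 were denser in every normal pulldown than in its input and near equal in the paclitaxel pairs.

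The next downward genes by p missed the threshold. Irgq, related to the immunity GTPases, gave -1.25 (SE 0.28, limma adjusted p = 0.0695) with 1.36, 1.57, 0.63 and 1.09 against -0.18, 0.13, -0.08 and -0.23. Atp2b2, a plasma membrane calcium pump, gave -1.44 (SE 0.33, limma adjusted p = 0.0695), with differences of -0.41, 0.82, -0.34 and 0.12 against -2.10, -1.28, -1.21 and -0.98. Neither overlapped.

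Tubulin, the target of paclitaxel, did not pass in any gene. Of 37 tubulin and microtubule-associated protein genes 10 were higher and 2 lower at an unadjusted p under 0.05, only 1 higher and 2 lower did not overlap, and the median shift was 0.26. Tubb2a had differences of 1.75, -1.55, 0.77 and 0.13 against 1.91, 1.89, 1.59 and 1.01, and a shift of 1.33 (SE 0.43, limma adjusted p = 0.2). Its input in normal biosample 2, at 2822 CPM, stood above the other normal inputs of 206 to 610 CPM. Map1a and Map1b, the large microtubule-associated proteins of axons and dendrites, gave -1.0 (SE 0.24, limma adjusted p = 0.0748) and -0.64 (SE 0.25, limma adjusted p = 0.325) with no overlap. The pan-neuronal tubulin Tubb3 gave -0.07 (SE 0.30).

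The remaining genes that shifted up concern membranes, signalling and vesicles. Prkx, a cAMP-regulated kinase on the X chromosome (77761411 to 77796278), had a narrow spread, with -1.62, -1.72, -1.58 and -1.28 in normal and 0.69, 0.88, 0.67 and 0.28 in paclitaxel biosamples. Its shift was 2.18 (SE 0.39, limma adjusted p = 0.0152). Rab6a, a GTPase of Golgi transport, had -3.20, -2.77, -2.03 and -2.48 against -1.74, -1.63, -0.70 and -0.51, so the pulldown was below the input in all 8 biosamples, with a shift of 1.48 (SE 0.30, limma adjusted p = 0.0406). Rab6a overlaps Mrpl48 on the opposite strand. Synpr, the synaptic vesicle protein synaptoporin, had -1.69, -1.45, -1.34 and -1.65 against -0.01, -0.24, -0.41 and -0.24 and a shift of 1.31 (SE 0.25, limma adjusted p = 0.0197). It was also below its input in every biosample.

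Ywhaq, a phosphoserine-binding adaptor, had -1.64, -1.85, -1.40 and -1.26 against 0.07, 0.03, 0.05 and -0.22, a shift of 1.52 (SE 0.25, limma adjusted p = 0.013). Its gene family shares sequence, so counting may divide its reads. Cd44, a hyaluronan receptor of the cell surface, had -0.58, -1.20, -0.35 and -0.49 against 0.66, 0.54, 0.76 and 0.58, a shift of 1.29 (SE 0.27, limma adjusted p = 0.042). Hs6st2, a heparan sulfate 6-O-sulfotransferase, had -0.75, -2.12, -0.19 and -0.73 against 0.56, 0.73, 0.85 and 0.75, a shift of 1.67 (SE 0.33, limma adjusted p = 0.029). In Cd44 and Hs6st2 all normal differences were below 0 and all paclitaxel differences above 0.

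The last genes to be named are less well described. Tmem50b, a membrane protein, had the largest standard error of the genes that passed, with differences of -4.18, -1.96, -0.70 and -0.85 against 0.69, 0.77, 1.09 and -0.12 and a shift of 2.53 (SE 0.53, limma adjusted p = 0.0425). Fam177a gave 2.14 (SE 0.44, limma adjusted p = 0.0412), with normal biosample 1 at -3.71 and the other normal values at -1.84 to -0.62. Fam189b gave 1.81 (SE 0.32, limma adjusted p = 0.0152), with differences of 0.03, -1.03, 0.44 and -0.58 against 2.09, 1.59, 1.33 and 1.08. Card19, a protein with a caspase recruitment domain, gave 1.77 (SE 0.32, limma adjusted p = 0.0152), with -1.56 to -0.22 against 0.32 to 1.08. The other 2 genes that passed, both also singled out after their values were seen, have no assigned function in these files. The predicted gene Gm20721 gave 1.82 (SE 0.29, limma adjusted p = 0.00953) and the cDNA clone 2010107E04Rik gave 1.63 (SE 0.25, limma adjusted p = 0.0066). Each passed in 18 of 24 alternative fits and in 7 of the 8 that left out 1 biosample, as often as Calca.

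Transcripts that shifted up were often short. The median annotated transcript length of the 23 genes was 1952 nt against 3218 nt for all genes tested, and 11 of the 23 fell in the shortest sixth of genes, up to 1679 nt. The median shift fell from 0.12 in that sixth to -0.07 in the longest sixth. When each library's trend with length and 3′ end GC was removed, 31 genes passed, among them 23 of the 27. The part of transcript length in the shift was not tested further, and that of abundance was not tested.

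In the 10 lists of non-neuronal cells the median difference between pulldown and input was below 0 in all 8 biosamples. The median over all genes tested was also below 0 in all 8, at -0.86 to -0.25. In biosample 2 the macrophage median of -0.50 lay above that of all genes, -0.62. The summed satellite glia markers stood above their input in normal biosamples 2 and 4, with log2 ratios of 0.31 and 0.06, and below it elsewhere. Much of that sum is S100b, which went against its list. Its differences were 0.72, 0.67, 0.21 and 0.36 in normal biosamples 1 to 4, where the list medians were -1.83 to -1.14. The median shift was below 0 in each of the 10 lists, with overlap between the treatments. It was -0.55 for 20 macrophage markers, -0.60 for 14 fibroblast markers, -0.72 for 12 endothelial markers and -1.04 for 8 erythroid markers, against -0.07 for 14 satellite glia and -0.23 for 18 Schwann cell markers. It was -0.34 for 5 other leukocyte, -0.18 for 10 pericyte, -0.58 for 8 skeletal muscle and -0.97 for 7 adipocyte markers. The median input changes were 0.71, 0.49, 0.28 and 0.83 and the median pulldown changes 0.28, -0.13, -0.36 and -0.42, in the order macrophage, fibroblast, endothelial and erythroid. The input change was the larger of the pair in the macrophage, fibroblast and erythroid lists and the smaller in the endothelial list. Of the genes in these lists 0 passed in limma. At an unadjusted p under 0.05, 1 macrophage, 3 fibroblast, 0 endothelial and 2 erythroid genes were lower. The macrophage gene was Tyrobp, which met the filter through its paclitaxel inputs alone and is therefore no support for a shift. The summed macrophage markers made up 0.0192% to 0.0391% of the normal and 0.0398% to 0.0568% of the paclitaxel inputs. This was not particular to macrophages. Input shares of fibroblast, endothelial, erythroid, adipocyte and other leukocyte markers were also higher without overlap, for fibroblasts 0.253% to 0.489% against 0.512% to 0.643%. Those of satellite glia, Schwann cell, pericyte and skeletal muscle markers overlapped. The T cell, B cell and natural killer markers Cd3e, Cd79a and Nkg7 fell below the filter.

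Hba-a1, an alpha-globin gene of red cells, stood at 21.7 to 45.9 CPM in the normal and 104 to 254 CPM in the paclitaxel inputs, with no overlap and an input change of 2.51 (limma adjusted p = 0.00616). Its pulldowns overlapped at 6 to 20.4 CPM and 1.11 to 70.1 CPM, and the shift was -2.38 (SE 0.70, limma adjusted p = 0.15). Pi16, a marker of adventitial fibroblasts, had the lowest p of its list, with differences of 0.30, 0.57, -0.81 and 0.21 in normal and -2.23, -1.81, -1.61 and -1.03 in paclitaxel biosamples, no overlap and a shift of -1.74 (SE 0.41, limma adjusted p = 0.0709). Its inputs stood at 53 to 113 CPM and 67.3 to 104 CPM, so in Pi16 the change was in the pulldown.

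The genes of lowest p in the other lists of non-neuronal cells were S100b of satellite glia at -0.69 (SE 0.25), the myelin gene Prx at -1.22 (SE 0.57) and the microglia and macrophage adaptor Tyrobp at -1.05 (SE 0.50). The B cell gene Ms4a1 gave -1.70 (SE 0.96), the endothelial gene Vwf -1.26 (SE 0.70), the pericyte gene Rgs5 0.83 (SE 0.36), the fast muscle myosin Myh4 -1.22 (SE 0.40) and the lipid droplet gene Cidea -1.40 (SE 0.60). None of these 8 genes passed in the shift, and S100b and Tyrobp alone did not overlap. With biosample 7 averaged, Tyrobp reached at most 2.92 CPM in the input and 0.11 CPM in the pulldown of a biosample. Only its paclitaxel inputs, at 1.37 to 2.92 CPM, reached 1 CPM, so it met the filter through that group alone. Its lack of overlap is therefore no support for a shift.

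**Figure D5:**
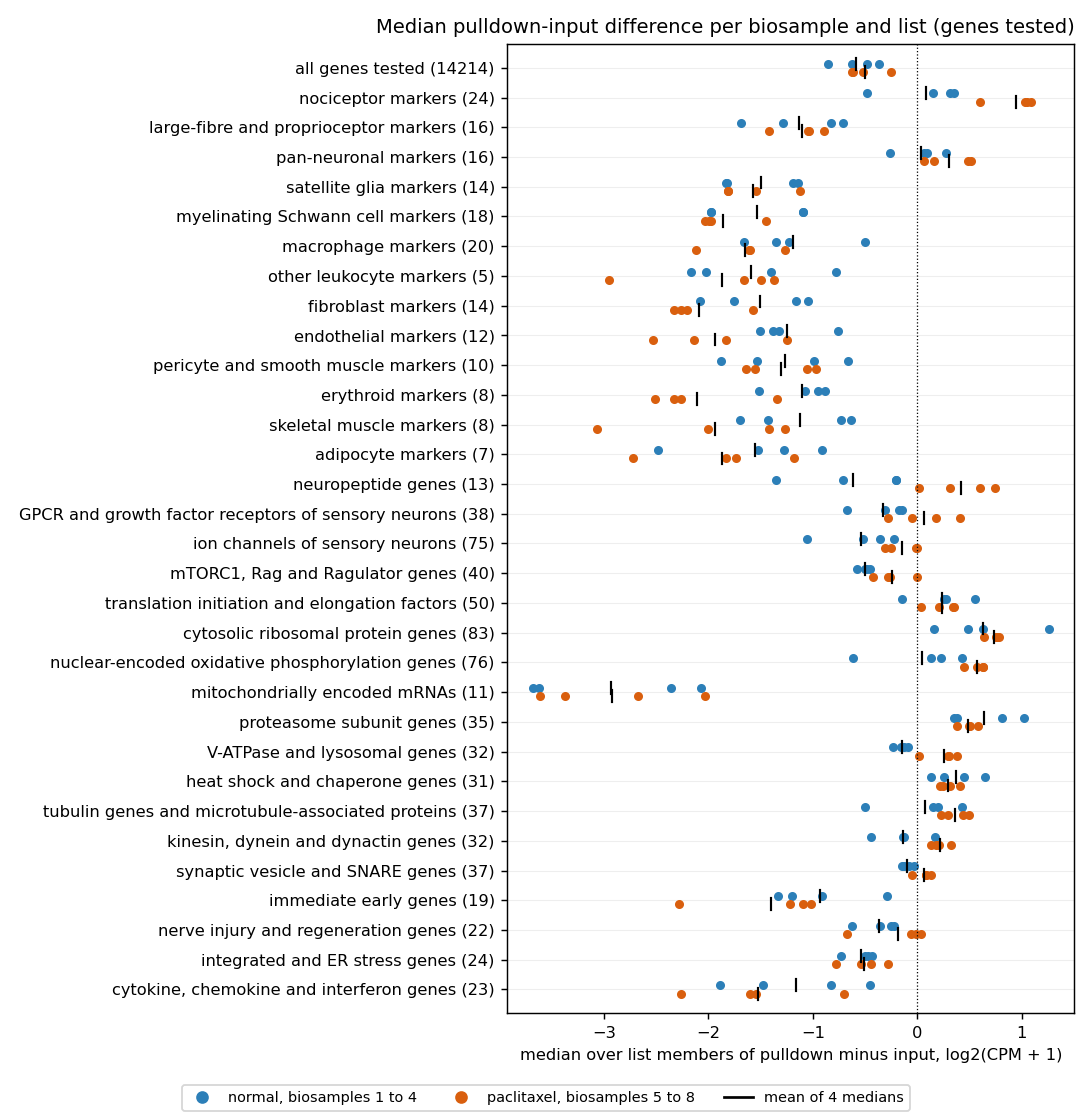
Median difference between pulldown and input over the tested members of each list, in log2(CPM + 1), per biosample (blue normal, orange paclitaxel; vertical bars are means of the 4 medians; number of tested genes in brackets). Nociceptor markers, neuropeptides and lysosomal genes lie further right in all 4 paclitaxel than in all 4 normal biosamples. So do 2 lists by a narrow gap: nuclear oxidative phosphorylation (up to 0.43 against 0.44 or more) and mTORC1 genes (up to -0.46 against -0.42 or more). The ribosomal protein and mitochondrially encoded lists do not separate.

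Of 19 immediate early genes 0 passed in limma, and 0 were higher and 3 lower at an unadjusted p under 0.05. Bhlhe40, a transcriptional repressor induced by activity and stress, had the largest estimate, -3.36 (SE 0.79, limma adjusted p = 0.0713). It stood at 39.7, 46.6, 25.4 and 44.5 CPM in normal pulldowns and at 0.2, 0.06, 0.835 and 13.8 CPM in paclitaxel pulldowns, the lowest of which is less than 3 reads, while the inputs held 33.4 to 123 CPM throughout. Biosample 8, at a difference of -1.21, lay among the normal values of -1.61 to -0.29. Atf3, a marker of nerve injury, stood at or below 21.8 CPM in every library and gave -1.05 (SE 0.99, limma adjusted p = 0.732). Of 24 integrated and endoplasmic reticulum stress genes 0 passed in limma and 0 reached an unadjusted p under 0.05, with Atf4 at -0.43 (SE 0.27).

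Of 22 nerve injury and regeneration genes 0 passed in limma, and the 2 at an unadjusted p under 0.05 were the peptide genes Gal and Adcyap1 described above. Of 23 cytokine, chemokine and interferon genes 0 passed in limma. At an unadjusted p under 0.05, 1 was higher and 2 were lower, beside 6.94% and 4.4% of all genes. Irf9, a subunit of the interferon-activated transcription factor ISGF3, had differences of -1.89, -2.59, -0.83 and -0.97 in normal and 1.02, 0.13, 0.53 and -0.62 in paclitaxel biosamples. These did not overlap, and the shift was 1.83 (SE 0.56, limma adjusted p = 0.164). Esm1, a secreted proteoglycan, stood at or below 5.74 CPM in both fractions of every biosample, with biosample 7 averaged, and gave -0.27 (SE 0.80, limma adjusted p = 0.929).

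Neuronal genes at large were not displaced in one direction relative to the input. Of 16 pan-neuronal markers 0 passed in limma, 3 were higher and 1 lower at an unadjusted p under 0.05, and the median shift was 0.11. Their summed CPM was lower after paclitaxel in both fractions, without overlap. It made up 1.82% to 2.13% of normal and 1.38% to 1.58% of paclitaxel inputs, and 2.59% to 4.65% and 1.66% to 2.39% of the pulldowns. The log2 ratios of pulldown to input overlapped, at 0.33 to 1.13 and 0.07 to 0.63. Elavl4, a neuronal RNA-binding protein, had the lowest p, with differences of -1.88 to -0.86 in normal and -0.84 to -0.13 in paclitaxel biosamples and a shift of 0.84 (SE 0.27, limma adjusted p = 0.186). Of 37 synaptic vesicle and SNARE genes 0 passed in limma, and the median was 0.07. At an unadjusted p under 0.05, 6 were higher and 3 lower, beside 6.94% and 4.4% of all genes. Rab3a, a GTPase of synaptic vesicles, had -1.40, -2.11, -0.42 and -1.54 against -0.18, -0.09, -0.06 and -0.23, with no overlap and a shift of 1.23 (SE 0.31, limma adjusted p = 0.0946). Syn2, which tethers vesicles, gave 1.42 (SE 0.38, limma adjusted p = 0.107), and the vesicular glutamate transporter Slc17a7 gave -1.28 (SE 0.42, limma adjusted p = 0.207).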

How the data were processed

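Dorsal root ganglion input and TRAP libraries were made with QuantSeq 3′ kits, per the labels' protocols. The authors deposited 1 table of values for GENCODE vM10 genes, per the file headers. The submitters' processing notes name FastQC 0.11.5, TopHat2 2.1.1, Bowtie2 2.2.9, Cufflinks 2.2.1 and GRCm38.p4. The strand setting of the counting is not given in the sources used here. The deposited values are headed TPM but are CPM: 98.0% to 99.0% of the non-zero values per library were whole multiples of 1 read's worth (tolerance 0.0051 CPM). The 2 merged columns were not used. Input and pulldown of a biosample came from 1 extract, per the labels, so they were paired by subtraction. QuantSeq reads come from transcript ends, so CPM was not divided by length.

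The shift was fitted in R 4.3.3 by limma 3.58.1 (two-sided, with an intensity trend, Benjamini-Hochberg over 14214 genes, threshold 0.05). The same functions were also run on simulated libraries built from the means, spread and depth of these data, with the outcome not given here. Pseudocount, filter, scaling, subsample, trend, block, threshold, length and GC, biosamples left out, and edgeR 4.0.16 on recovered reads were varied. With 4 biosamples a treatment, only large shifts could pass. In each direction, the text names the 12 largest passed shifts (mean of at least 5 CPM in a group, no overlap), filled to 6 by p, the study's subjects and each list's passed members, up to 4, or its lowest p. The comparison, its members and the lists were chosen with earlier results of these data known. Coordinates are those deposited with the values, on GRCm38, with 1 added to each start. Strand, overlapping genes, transcript length and GC are from GENCODE vM21, in which 11723 of 21851 shared genes had the same start and end. No sequences are shown.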

Additional observations from a re-analysis of the deposited data

Results flagged for a closer look

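Within-group outliers were looked for in 122 groups of 4 differences, of which chance would mark about 1 in 20, and 4 stood apart from the rest of their group. Esm1 in normal biosample 4 had a difference of 0.46 against -2.35 to -2.07 in the other normal biosamples. Map1a in normal biosample 3 had 0.81 against 1.35 to 1.45, and in paclitaxel biosample 6 it had 0.45 against 0.19 to 0.23. Ywhaq in paclitaxel biosample 8 had -0.22 against 0.03 to 0.07.

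The difference between pulldown and input itself differed between the treatments, by the limma test of the shift, in the named genes that passed. The shifts were -1.41 for Nyap1, -1.37 for Anp32b, -1.28 for Plec and -1.21 for Nefm. On the higher side they were 1.29 for Cd44, 1.31 for Synpr, 1.48 for Rab6a, 1.49 for Gnaq, 1.52 for Dynlrb1, 1.52 for Ywhaq, 1.55 for Ndufb6, 1.67 for Hs6st2, 1.70 for Rpl37, 1.72 for Calca, 1.77 for Card19, 1.80 for Smdt1, 1.81 for Fam189b and 1.81 for Ndufa4. The largest were 1.87 for Actg1, 2.00 for Slc25a3, 2.14 for Fam177a, 2.18 for Prkx, 2.42 for Cisd2, 2.53 for Tmem50b and 2.61 for Hagh.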

How the results depend on the processing

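The count of genes passing the limma shift test was 27 (23 higher, 4 lower). It was 13 (12 and 1) with a pseudocount of 0.1 CPM, 6 (6 and 0) after quantile normalization, 5 (5 and 0) and 17 (1 lower) with subsample 1 or 2 of biosample 7 alone, 9 (8 and 1) without biosamples 1, 2, 5 and 6, and 109 (82 and 27) at a threshold of 0.1. Robust estimation gave 2 lower. It was 0 with no filter (1737 genes at an unadjusted p under 0.05), no intensity trend (1288), no replicate block (1082), the replicate block as a random effect (1497) and edgeR (1203). The pairing came from the shared extract. Leaving out 1 biosample gave 0 to 86 (0 to 72 higher, 0 to 14 lower). In the pulldown that range was 0 to 491 (0 to 367 and 0 to 124) and in the input 0 to 831 (0 to 656 and 0 to 175). The pulldown gave 112 lower with a pseudocount of 0.1, 116 higher and 135 lower after median-ratio scaling, 523 (307 and 216) after quantile normalization and 403 (134 lower) with length and GC trends removed. The input gave 136 higher and 43 lower after median-ratio scaling and 107 (86 higher) after quantile normalization. The cause of these changes was not tested.

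The sign changed in 11 of 1457 values of named genes, all in genes that did not pass. Eif4e was -0.10 after median-ratio scaling, -0.11 after quantile normalization, -0.0035 without mitochondrial, globin and ribosomal protein genes, -0.11 with subsample 2 alone, -0.13 with edgeR and -0.21 to 0.18 with 1 biosample left out. Esm1 was 0.028 after quantile normalization and -0.86 to 0.40 with 1 biosample left out, and Mtor was -0.044 without biosamples 1, 2, 5 and 6. Of 742 list medians 728 moved by less than 1 SD. The others were nociceptor markers 0.52, erythroid markers -0.53 and translation factors -0.28 without biosamples 1, 2, 5 and 6, neuropeptides 0.37 with a pseudocount of 5 and mTORC1 genes 0.39 with 0.1. Endothelial markers were -1.66 and adipocyte markers -0.31 with edgeR, and endothelial markers -1.25 to -0.45 with 1 biosample left out. Lysosomal genes were 0.34 after median-ratio scaling, 0.30 after quantile normalization, 0.34 with edgeR and 0.26 to 0.50 with 1 biosample left out, and synaptic genes -0.049 after median-ratio scaling and -0.062 with edgeR. Depth limits genes near 3 reads, which is 0.0917 to 0.502 CPM in the pulldowns.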
